A study of Mus musculus with 6 samples.

Results

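Cytochromes P450 are heme enzymes that use oxygen and electrons to oxidise drugs, steroids, fatty acids and other small molecules. Members were taken from the count table by symbol. They are all genes whose name begins Cyp1, Cyp2 or Cyp3, followed by a letter and a number, without pseudogenes, plus Por, which encodes the P450 reductase. This gave 61 genes of 34866 identifiers, 60 P450 genes in 16 subfamilies and Por. Of the 16 subfamilies, 9 had a single gene. Polyadenylated RNA was sequenced from livers of male C57BL/6 mice aged 8 weeks. The iD1 group held 3 libraries from mice that received iD1, for which the labels give no more than this code. The vehicle group held 3 libraries from mice given vehicle, although the treatment label of these samples reads untreated. Per the labels a drug was given intraperitoneally, and dose, time after dosing and target are not stated there. Values are listed as replicates 1, 2 and 3 for iD1 and as replicates 1, 2 and an unnumbered replicate for vehicle. The unnumbered column carries a number that no sample title has. Separate animals are not named for the libraries of a group. The p-values below therefore weigh the group difference against the spread among these libraries, which may be technical.

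The Cyp1, Cyp2 and Cyp3 families hold the enzymes that handle most foreign compounds in the liver, and many members also oxidise steroids, bile acids or fatty acids. POR passes electrons from NADPH to every P450 of the endoplasmic reticulum. Several of these genes are classical readouts of ligand-activated receptors. In mice Cyp1a1 and Cyp1a2 respond to the aryl hydrocarbon receptor AHR, Cyp2b10 to the constitutive androstane receptor CAR, and Cyp3a11 to the pregnane X receptor PXR. Many hepatic P450 genes are expressed mostly by hepatocytes around the central vein, and several differ in level between male and female mice.

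Totals ran from 23515571 to 35207596 estimated counts in iD1 libraries and from 27160894 to 37613549 in vehicle libraries. The 61 members held from 1.97% to 2.75% of the counts in iD1 libraries and from 1.82% to 2.31% in vehicle libraries. Mitochondrially encoded genes held 8.68% to 10.3% of counts in iD1 libraries and 10.6% to 13.6% in vehicle libraries, without overlap, and their part in the results was not tested. Of the 61 members, 46 had enough counts to be tested and 15 had not. A gene was called when its p in edgeR's quasi-likelihood test was under 0.05 after Benjamini-Hochberg adjustment over the 13718 tested genes. Levels are in CPM, counts divided by TMM-scaled library size, and fold changes are log2, iD1 over vehicle, with their standard errors (SE). In bulk liver RNA, fewer cells of a type and less RNA per cell cannot be told apart.

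Promoters are shown for Por, Cyp2j9, Cyp2e1 and Cyp3a13, which were higher in iD1 livers, and for Cyp3a11, the PXR readout, which was not called. Each line gives the 250 bases before the RefSeq start on GRCm38.p6, 5′ to 3′ on the strand of the gene. Capitals mark GCGTG, the core of the AHR response element, AGGTCA, the core recognised by many nuclear receptors, and AGTTCA, a variant of it found in PXR and CAR elements, on either strand. A match on the other strand is marked as its reverse complement, and no marked match overlaps another. The windows lie at chr5:135688895-135689144 on the plus strand for Por and at chr4:96591486-96591735 on the minus strand for Cyp2j9. They lie at chr7:140763569-140763818 on the plus strand for Cyp2e1, at chr5:137921620-137921869 on the minus strand for Cyp3a13 and at chr5:145879855-145880104 on the minus strand for Cyp3a11.
Por: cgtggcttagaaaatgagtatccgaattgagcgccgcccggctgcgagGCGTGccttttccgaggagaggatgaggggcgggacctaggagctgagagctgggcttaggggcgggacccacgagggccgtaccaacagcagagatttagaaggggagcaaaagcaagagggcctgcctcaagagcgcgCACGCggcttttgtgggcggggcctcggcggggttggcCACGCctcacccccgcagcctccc
Cyp2j9: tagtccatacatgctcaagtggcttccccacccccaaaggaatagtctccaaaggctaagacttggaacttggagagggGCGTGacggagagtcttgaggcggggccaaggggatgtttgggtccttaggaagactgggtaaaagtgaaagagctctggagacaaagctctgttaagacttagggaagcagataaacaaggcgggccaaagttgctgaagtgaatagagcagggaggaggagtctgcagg
Cyp2e1: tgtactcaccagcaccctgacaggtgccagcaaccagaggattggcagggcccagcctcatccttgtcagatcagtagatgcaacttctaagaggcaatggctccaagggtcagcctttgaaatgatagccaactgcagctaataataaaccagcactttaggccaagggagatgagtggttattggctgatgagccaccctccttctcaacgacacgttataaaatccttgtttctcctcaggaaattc
Cyp3a13: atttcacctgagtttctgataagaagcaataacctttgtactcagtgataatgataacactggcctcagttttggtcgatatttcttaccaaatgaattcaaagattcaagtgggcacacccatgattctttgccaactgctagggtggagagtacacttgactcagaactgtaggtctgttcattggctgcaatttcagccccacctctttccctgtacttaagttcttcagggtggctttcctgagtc
Cyp3a11: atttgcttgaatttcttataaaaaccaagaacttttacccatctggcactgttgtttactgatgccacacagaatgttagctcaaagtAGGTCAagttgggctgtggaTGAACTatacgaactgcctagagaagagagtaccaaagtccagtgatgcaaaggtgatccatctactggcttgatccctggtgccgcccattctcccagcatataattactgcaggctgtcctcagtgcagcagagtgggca

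The Por window held 3 matches to GCGTG and the Cyp2j9 window held 1. The Por window lies inside the gene as annotated, which begins at chr5:135670033, and not in front of it. The other windows shown abut or overlap the annotated start of their gene. The Cyp3a11 window held 1 AGGTCA and 1 AGTTCA, and the Cyp2e1 and Cyp3a13 windows held none of these letters. Over windows of 300 bases, 250 before and 50 after the start, GCGTG was found in 19.6% of the 56 promoters matched to 53 members, against 32.4% of all 32851 mouse promoters in the RefSeq table. AGGTCA was found in 33.9% of the member promoters, against 16.3% of all promoters, and AGTTCA in 14.3%, against 14% of all promoters. The HNF1 motif of that search was found in 0 of the 56 member promoters and in 3 of the 32851. These are matches of letters, counted on both strands and not tested. No promoter was matched for 8 members, Cyp2u1 among them.

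Of the 46 tested members 4 were called higher in iD1 livers, Por, Cyp3a13, Cyp2e1 and Cyp2j9, and 1 was called lower, Cyp2u1. The 4 are 8.70% of the 46 tested members, against 8.42% of all tested genes called higher. The 1 is 2.17%, against 8.3% of all tested genes called lower, and 16.7% were called in either direction. In this edgeR fit the share called higher was thus near the background. The libraries of the groups did not overlap for 9 members higher in iD1 livers (19.6%, against 18.5% of all tested genes) and for 2 members lower in iD1 livers (4.35%, against 18.7%). The median log2 fold change of the 46 tested members was 0.13, against 0.000637 over all tested genes, and 33 of the 46 lay within 0.5 of 0. With library size alone as the scaling, the median of all genes moved to -0.20 and that of the members to -0.07. That scaling called 4 of the 46 members higher (8.70%, against 4.35% of all tested genes). It called 2 of the 46 lower, against 13.7% of all tested genes, with Cyp2r1 joining Cyp2u1. It left 5 of the 46 members higher without overlap, against 8.57% of all tested genes, and 5 of the 46 lower, against 30.6%. DESeq2 called 8 of the 49 members it tested higher, against 9.34% of all genes it tested. It called 1 of the 49 lower, against 8.15%.

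**Figure D1:**
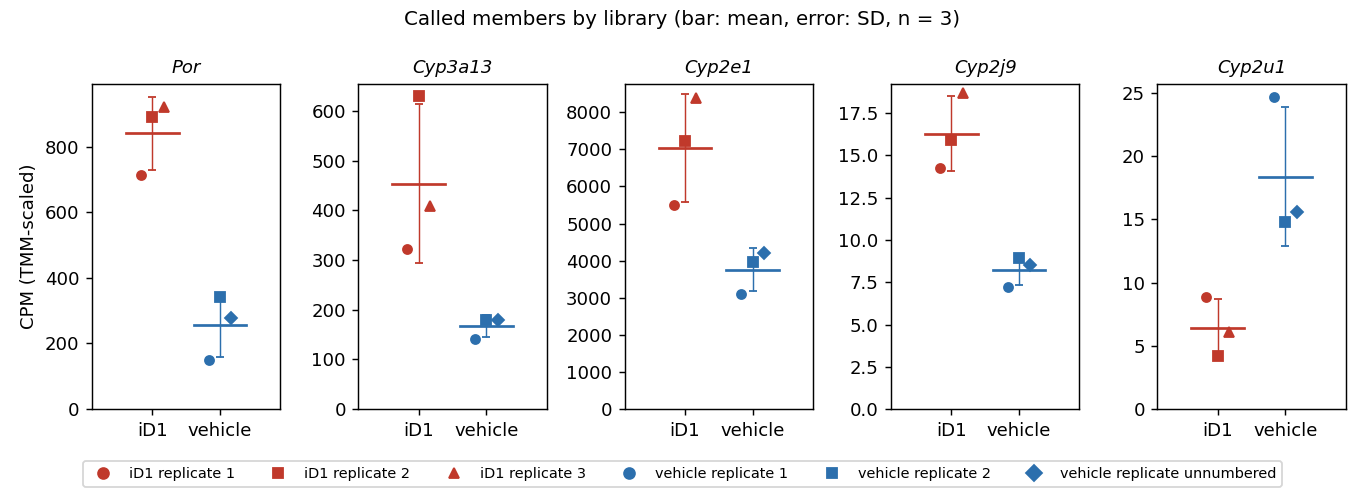
Level of each called member in CPM in every library, with iD1 libraries in red on the left and vehicle libraries in blue on the right of each panel, the mean as a bar and the SD as an error bar (n = 3 each). Por, Cyp3a13, Cyp2e1 and Cyp2j9 lie higher in all 3 iD1 libraries than in any vehicle library, and Cyp2u1 lies lower.

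Por rose in iD1 livers and had the largest log2 fold change of the called members. Por (ENSMUSG00000005514) is a protein-coding gene at chr5:135670033-135735326 on the plus strand (GENCODE M21, GRCm38), and none of its 31-base words occurs in another gene's transcripts. It had 714, 889 and 919.6 CPM in iD1 livers, against 149, 343 and 277 CPM in vehicle livers. The lowest iD1 library lay above the highest vehicle library. Por averaged 841 ± 111 CPM in iD1 livers and 256 ± 98.3 CPM in vehicle livers (SD, n = 3 each), a log2 fold change of 1.71 (SE 0.28, adjusted p = 0.00572 in edgeR's quasi-likelihood test). The summed CPM of the 60 P450 genes per CPM of Por was 26.5, 29.0 and 31.7 in iD1 livers, against 109, 59.4 and 81.5 in vehicle livers. This ratio was lower in every iD1 library, while the P450 sum itself overlapped between the groups. That sum was 18886, 25774 and 29141 CPM in iD1 livers, against 16321, 20336 and 22606 CPM in vehicle livers.

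Of 3 other electron donors on the list 1 was called, against 16.7% of all tested genes called in either direction. Cyb5b, the cytochrome b5 of the outer mitochondrial membrane, fell to 249, 243 and 221 CPM in iD1 livers, against 487, 458 and 394 CPM in vehicle livers. Its log2 fold change was -0.91 (SE 0.14, edgeR adjusted p = 0.00334), and the call was kept without each of the 6 libraries. Cyb5a, the microsomal cytochrome b5, averaged 1023 ± 107 CPM in iD1 livers and 826 ± 65.3 CPM in vehicle livers (SD, n = 3 each) and was not called, with a log2 fold change of 0.31 (SE 0.15). Cyb5r3, the cytochrome b5 reductase, was not called, at a log2 fold change of -0.11 (SE 0.24). Of these 4 genes, Por included, 1 rose and 1 fell, and the median of their log2 fold changes was 0.10. The level summed over the 4 ran from 2280.2 to 2501 CPM in iD1 livers and from 1774 to 1919.8 CPM in vehicle livers. Por alone held 714 to 919.6 CPM of that sum in iD1 livers and 149 to 343 CPM in vehicle livers.

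Cyp2e1, which oxidises ethanol, acetone and other small molecules in hepatocytes around the central vein, rose in iD1 livers. Cyp2e1 (ENSMUSG00000025479) lies at chr7:140763739-140774987 on the plus strand. It had 5493, 7238 and 8393 CPM in iD1 livers, against 3112, 3968 and 4202 CPM in vehicle livers, without overlap. The log2 fold change was 0.90 (SE 0.21, edgeR adjusted p = 0.0193). Cyp2e1 was past the threshold with all 6 libraries and missed it in the same edgeR test without iD1 replicate 3 (adjusted p = 0.0781) or when any 1 vehicle library was left out (adjusted p = 0.0559 without replicate 1, 0.0563 without replicate 2 and 0.0524 without the unnumbered one). Of the summed P450 CPM it held 29.1%, 28.1% and 28.8% in iD1 livers, against 19.1%, 19.5% and 18.6% in vehicle livers. These shares varied little within a group, with SDs of 0.516 in iD1 and 0.462 in vehicle libraries, although the sums varied. Without Cyp2e1 the P450 sum ran from 13394 to 20748 CPM in iD1 livers and from 13209 to 18403 CPM in vehicle livers.

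In the Cyp3a subfamily, whose enzymes oxidise many drugs and steroids, 1 of 9 tested genes was called, Cyp3a13. Cyp3a13 (ENSMUSG00000029727) lies at chr5:137892932-137921619 on the minus strand, and 0.239% of its 31-base words occur in other genes. It rose to 321, 631 and 409 CPM in iD1 livers, against 141, 179 and 180.3 CPM in vehicle livers, and no iD1 library fell within the vehicle range. This was a log2 fold change of 1.44 (SE 0.24, edgeR adjusted p = 0.00564). Cyp3a11, the main hepatic Cyp3a enzyme of the mouse, had 4493, 7785 and 8329.8 CPM in iD1 livers, against 5238, 6110.5 and 8089.8 CPM in vehicle livers. Its groups overlapped across nearly their whole range, with a log2 fold change of 0.08 (SE 0.26, edgeR adjusted p = 0.862). Cyp3a11 made up 23.8%, 30.2% and 28.6% of the P450 sum in iD1 livers, against 32.1%, 30.05% and 35.8% in vehicle livers, which overlap.

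Cyp3a25, a further abundant Cyp3a enzyme, had 518, 679 and 793 CPM in iD1 livers, against 559, 682 and 769 CPM in vehicle livers. It was not called (log2 fold change -0.02, SE 0.20). The other Cyp3a genes were low, with at most 63.8 CPM in a library for Cyp3a59 and at most 2.51 CPM for Cyp3a16, Cyp3a41a, Cyp3a41b, Cyp3a44 and Cyp3a57, and none was called. Cyp3a41a, a female-biased gene in mice, had 2.18, 1.68 and 2.37 CPM in iD1 livers, against 0.998, 0.675 and 1.56 CPM in vehicle livers, without overlap. Its log2 fold change was 0.95 (SE 0.33, edgeR adjusted p = 0.0825), and the adjusted p was 0.0475 without the unnumbered vehicle replicate. Of its 31-base words, 96.1% also occur in Cyp3a41b, and the promoters of the pair differ at 8 of 300 bases. Cyp3a41b had estimated counts of 0, 52 and 54 in iD1 libraries, against 33, 70 and 63 in vehicle libraries. The sum of the pair was 2.18, 3.37 and 4.88 CPM in iD1 livers, against 2.10, 2.36 and 3.49 CPM in vehicle livers, and overlapped, so the values of each gene alone are uncertain.

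**Figure D2:**
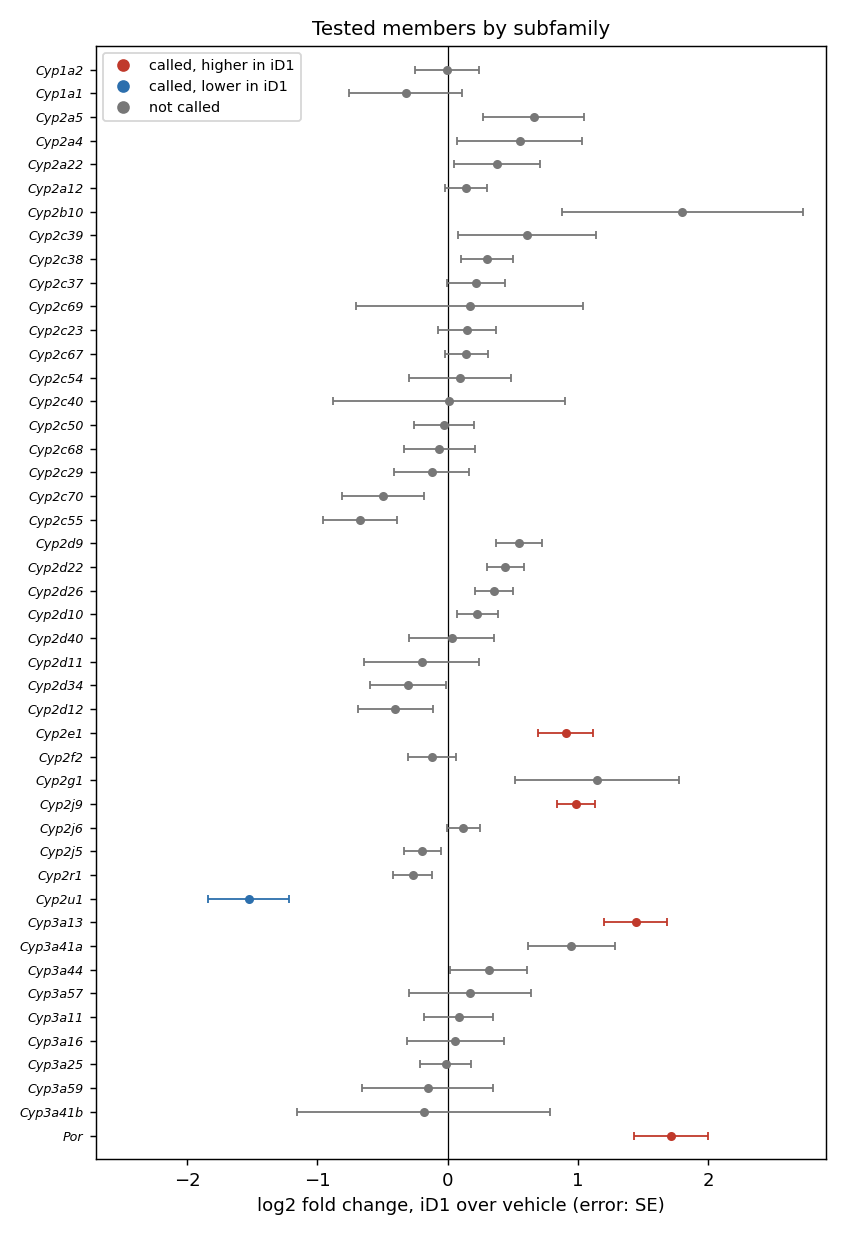
Log2 fold change, iD1 over vehicle, of the 46 tested members on the x axis, grouped by subfamily down the page, with the SE as error bars and colours for the edgeR call. Called members are Por (1.71), Cyp3a13 (1.44), Cyp2j9 (0.98) and Cyp2e1 (0.90) to the right of 0 and Cyp2u1 (-1.53) to the left, and Cyp2b10 has the widest error bar to the right.

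In the Cyp2j subfamily, which turns arachidonic acid into epoxides and hydroxy acids, 1 of 3 tested genes was called. Cyp2j9 (ENSMUSG00000015224), at chr4:96568429-96591578 on the minus strand, rose to 14.3, 15.9 and 18.7 CPM in iD1 livers, against 7.22, 8.92 and 8.52 CPM in vehicle livers. All iD1 libraries lay above all vehicle libraries, with little spread in either group. Its log2 fold change was 0.98 (SE 0.15, edgeR adjusted p = 0.0026), and Cyp2j9 was called in each of the 18 settings tried. Cyp2j5, the abundant hepatic and renal member, had 393, 430.0 and 459.5 CPM in iD1 livers, against 459.4, 467 and 541 CPM in vehicle livers. These groups overlapped by a narrow margin at iD1 replicate 3, and the log2 fold change was -0.19 (SE 0.14, edgeR adjusted p = 0.391). Cyp2j6 ran from 54.7 to 65.0 CPM in iD1 livers and from 52.5 to 63.4 CPM in vehicle livers and was not called. The summed Cyp2j level was 463, 509.7 and 544 CPM in iD1 livers, against 519, 529 and 613 CPM in vehicle livers, and overlapped, and with library size alone every iD1 sum lay under every vehicle sum.

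Cyp2j8 had too few counts to be tested, with estimated counts of 15, 6 and 15 in iD1 libraries, against 3, 5 and 0 in vehicle libraries. It was called higher by DESeq2, by edgeR with no filter on low counts and by edgeR without iD1 replicate 2.

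Cyp2u1, which hydroxylates arachidonic acid and other long-chain fatty acids, was the member that fell. Cyp2u1 (ENSMUSG00000027983) lies at chr3:131288441-131303227 on the minus strand. It had 8.87, 4.17 and 6.08 CPM in iD1 livers, against 24.7, 14.8 and 15.6 CPM in vehicle livers, and the groups did not overlap. The log2 fold change was -1.53 (SE 0.31, edgeR adjusted p = 0.0171), and it missed the threshold without iD1 replicate 3 (adjusted p = 0.0731). Its exons share 548 bases with 4930534D22Rik on the other strand, which was not analysed here. The labels name a stranded library kit and do not say how strand was used in counting.

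In the Cyp1 family, which oxidises polycyclic aromatic compounds, no gene was called. Cyp1a2, the constitutive hepatic member, had 393, 226 and 481 CPM in iD1 livers, against 334, 387 and 383 CPM in vehicle livers. The iD1 libraries spread on both sides of the vehicle libraries, and the log2 fold change was -0.01 (SE 0.25, edgeR adjusted p = 0.99). Cyp1a1, the strongly inducible AHR target, was low, with 0.363, 0.809 and 0.789 CPM in iD1 livers, against 0.499, 0.795 and 1.16 CPM in vehicle livers. These ranges overlapped (log2 fold change -0.32, SE 0.43). Cyp1b1, expressed mainly outside hepatocytes, was not tested and had at most 0.550 CPM in a library.

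In the Cyp2a subfamily 0 of 4 tested genes were called by edgeR, DESeq2 or limma-voom, and 0 had an unadjusted p under 0.05 in edgeR. Cyp2a5, the coumarin hydroxylase, had 763, 1040.0 and 1889 CPM in iD1 livers, against 489.9, 822 and 1027 CPM in vehicle livers. The highest value belonged to iD1 replicate 3, and the log2 fold change was 0.66 (SE 0.39), or 0.21 without that library. Cyp2a12, a steroid hydroxylase, had 373, 377 and 516 CPM in iD1 livers, against 379.7, 381 and 388 CPM in vehicle livers, a log2 fold change of 0.14 (SE 0.16). Cyp2a4, a female-biased steroid hydroxylase, and Cyp2a22 were at or under 3.02 CPM in every library. Cyp2a4 and Cyp2a5 share much of their sequence, and 58.1% of the 31-base words of Cyp2a4 occur in other genes.

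Cyp2b10, the classical CAR target, was the 1 tested gene of the 5 in its subfamily, and it was not called. It had 30.4, 48.0 and 70.1 CPM in iD1 livers, against 2.23, 28.4 and 11.5 CPM in vehicle livers. All iD1 libraries lay above all vehicle libraries, but the vehicle libraries differed among themselves by 12.7-fold. The fitted log2 fold change was 1.80 (SE 0.92, edgeR adjusted p = 0.264), and it was 2.83 without vehicle replicate 2 (adjusted p = 0.155). With library size alone the summed Cyp2b level overlapped, at 30.9 CPM for the lowest iD1 library and 31.9 CPM for the highest vehicle library. Cyp2b9 and Cyp2b13, female-specific in mouse liver, were not tested, and Cyp2b13 had no count in any library.

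Of the 15 genes of the Cyp2c subfamily, which includes bile acid and arachidonic acid oxidases, 13 were tested and 0 were called by edgeR, DESeq2 or limma-voom. An unadjusted p under 0.05 in edgeR was found for 1 of them, Cyp2c55. Cyp2c29, an arachidonate epoxygenase, had 774, 1341 and 1143 CPM in iD1 livers, against 741, 1428 and 1380.3 CPM in vehicle livers. Cyp2c50 had 473, 765 and 789.9 CPM in iD1 livers, against 531, 777 and 759.6 CPM in vehicle livers. Both genes were lowest in replicate 1 of each group, and their log2 fold changes were -0.12 (SE 0.29) and -0.03 (SE 0.23). Cyp2c54 had 155, 315 and 356 CPM in iD1 livers, against 153, 335 and 285 CPM in vehicle livers. Cyp2c37 had 147, 275 and 248 CPM in iD1 livers, against 163, 200.2 and 213 CPM in vehicle livers. Replicate 1 was again the lowest of each group, with log2 fold changes of 0.10 (SE 0.39) for Cyp2c54 and 0.22 (SE 0.23) for Cyp2c37.

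Cyp2c70, the mouse enzyme that makes muricholic acids from other bile acids, had 519, 326 and 218 CPM in iD1 livers, against 372, 579.7 and 549.9 CPM in vehicle livers. Its iD1 replicate 1 was the highest iD1 library and its vehicle replicate 1 the lowest vehicle library, and the ranges overlapped. Its fitted log2 fold change was -0.50 (SE 0.31, edgeR adjusted p = 0.326), and without iD1 replicate 1 it was -0.88 with an adjusted p of 0.0419. Cyp2c23, an arachidonate epoxygenase, had 275, 176 and 343 CPM in iD1 livers, against 251, 251 and 213 CPM in vehicle livers. The iD1 libraries lay on both sides of the vehicle range, and the log2 fold change was 0.15 (SE 0.22). Cyp2c55 had 4.92, 2.46 and 5.76 CPM in iD1 livers, against 5.89, 6.75 and 8.12 CPM in vehicle livers. It was the second member whose libraries lay lower in iD1 livers without overlap, and it was not called, with a log2 fold change of -0.67 (SE 0.29, edgeR adjusted p = 0.146).

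A cluster on chromosome 19 holds Cyp2c40, Cyp2c67, Cyp2c68 and Cyp2c69, of whose 31-base words 72.6%, 67.6%, 62.0% and 64.9% occur in other genes, so reads may be split among them. Cyp2c67 had 183, 197 and 259 CPM in iD1 livers, against 219.6, 167 and 192 CPM in vehicle livers. Cyp2c68 had 126, 206 and 221 CPM in iD1 livers, against 129, 218 and 232 CPM in vehicle livers. Both ranges overlapped, with log2 fold changes of 0.14 (SE 0.17) and -0.07 (SE 0.27). Cyp2c40 and Cyp2c69 had the widest ratios between the highest and the lowest iD1 library among tested members with no library at 0. That ratio was 8.25 in iD1 and 3.99 in vehicle libraries for Cyp2c40 and 8.48 in iD1 and 4.16 in vehicle libraries for Cyp2c69, with replicate 1 the lowest each time. The sum of the 4 genes was 315, 432 and 521 CPM in iD1 livers, against 357, 422 and 451 CPM in vehicle livers. Exons of Cyp2c29 share 142 bases on the same strand with Cyp2c53-ps, which had at most 1.30 CPM in a library. Cyp2c53-ps, not a member, was called lower without overlap, with a log2 fold change of -2.29 (SE 0.58, edgeR adjusted p = 0.027). The remaining Cyp2c genes tested, Cyp2c38 and Cyp2c39, had log2 fold changes of 0.30 (SE 0.20) and 0.61 (SE 0.53), and neither was called.

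In the Cyp2d subfamily, which oxidises basic drugs and steroids, 0 of 8 tested genes were called by edgeR or limma-voom, while DESeq2 called 3 higher. The same number had an unadjusted p under 0.05 in edgeR. Cyp2d9, a male-biased steroid hydroxylase, had 1097, 1436 and 1593 CPM in iD1 livers, against 933, 887 and 998 CPM in vehicle livers. The groups did not overlap, and the log2 fold change was 0.55 (SE 0.18, edgeR adjusted p = 0.0606). Without iD1 replicate 1 it was 0.69 with an adjusted p of 0.0228. Cyp2d22 had 192, 152 and 192 CPM in iD1 livers, against 121, 147 and 126 CPM in vehicle livers. The log2 fold change of Cyp2d22 was 0.44 (SE 0.14, edgeR adjusted p = 0.0618), and the adjusted p was 0.0418 without iD1 replicate 2. Cyp2d26 had 508, 456 and 465 CPM in iD1 livers, against 388, 405 and 324 CPM in vehicle livers. Cyp2d26 was likewise without overlap and not called, with a log2 fold change of 0.35 (SE 0.14) (edgeR adjusted p = 0.127). With library size alone, Cyp2d9 stayed without overlap, while the groups overlapped for Cyp2d22 and Cyp2d26.

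Cyp2d10 had 515.0, 676 and 646 CPM in iD1 livers, against 497, 515.1 and 557 CPM in vehicle livers. Its lowest iD1 library lay within the vehicle range, and the log2 fold change was 0.23 (SE 0.16). Of its 31-base words 50.2% occur in other genes. Cyp2d11, Cyp2d12, Cyp2d34 and Cyp2d40 had log2 fold changes from -0.40 to 0.03, and only Cyp2d40 exceeded 3.26 CPM in a library. The summed Cyp2d level was 2368, 2763 and 2928 CPM in iD1 livers, against 2001, 1987 and 2043 CPM in vehicle livers. All iD1 sums lay above all vehicle sums, also with library size alone, where the lowest iD1 sum was 2379.6 CPM and the highest vehicle sum 2217 CPM. The sum was not tested. Exons of Cyp2d9 share 186 bases on the same strand with Gm46501, which was at or under 1.86 CPM in every library.

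**Figure D3:**
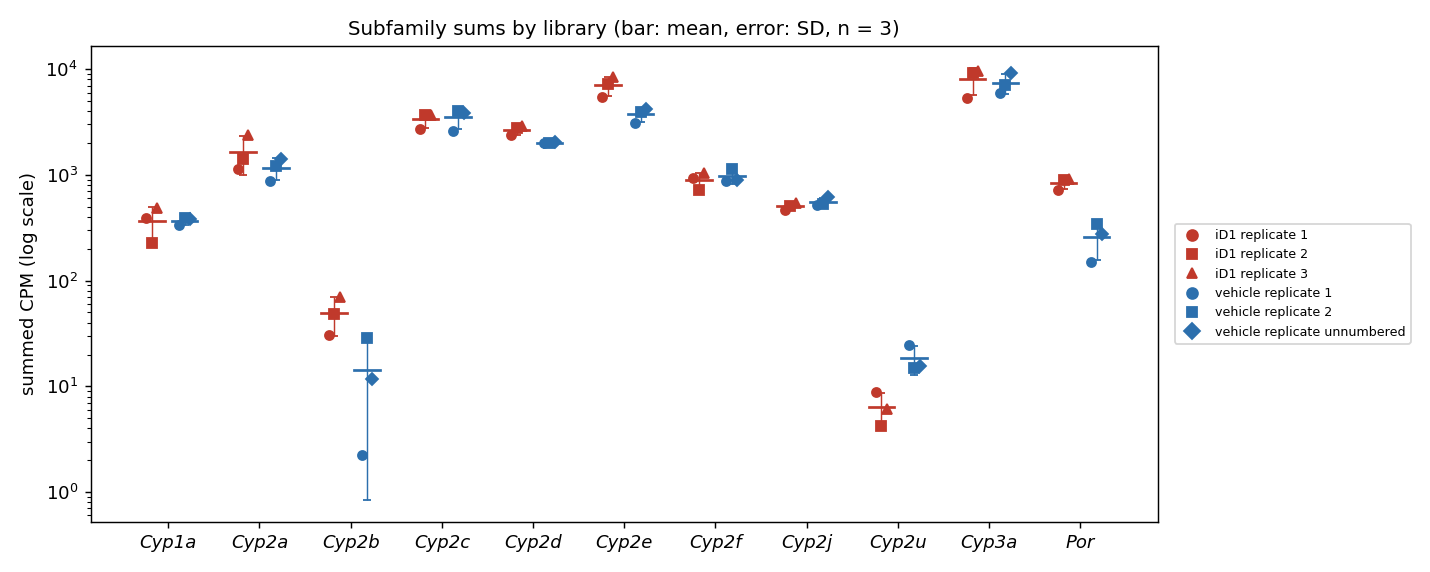
Summed CPM per subfamily on a log axis in every library, iD1 in red on the left and vehicle in blue on the right of each pair, with the mean as a bar and the SD as an error bar (n = 3 each). The iD1 libraries lie above the vehicle libraries for Cyp2b, Cyp2d, Cyp2e and Por and below them for Cyp2u, and the other subfamilies drawn overlap.

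Cyp2f2, an enzyme of hepatocytes around the portal vein and of the lung that activates naphthalene, had 929.6, 721 and 1032 CPM in iD1 livers, against 879, 1134 and 898 CPM in vehicle livers. It was not called (log2 fold change -0.12, SE 0.19). Exons of Cyp2f2 share 274 bases on the other strand with Gm15883, which was not analysed here. Cyp2r1, the vitamin D 25-hydroxylase, had 9.63, 13.4 and 12.8 CPM in iD1 livers, against 15.4, 13.0 and 14.8 CPM in vehicle livers. Cyp2r1 was not called, with a log2 fold change of -0.27 (SE 0.15), while with library size alone it was -0.48 (edgeR adjusted p = 0.0443). Cyp2g1, best known from olfactory tissue, stayed at or under 1.44 CPM in every library.

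Of the 15 members not tested, 4 had no count in any library after rounding, Cyp2b13, Cyp2b23, Cyp2j11 and Cyp2w1. Means were under 0.1 CPM in both groups for 9 of the 15, and the highest value of any of them in a library was 0.697 CPM, for Cyp2j8. The rest of the 15 were Cyp2j8, Cyp1b1, Cyp2b9, Cyp2b19, Cyp2c65, Cyp2c66, Cyp2j7, Cyp2j12, Cyp2j13, Cyp2s1 and Cyp2t4. A further 15 members were tested with means under 10 CPM in both groups. At the other end, 22 members reached a mean of 100 CPM in a group, and 3 of these 22 were called, Por, Cyp3a13 and Cyp2e1.

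Between genes, levels were compared as CPM per kilobase of exon, with n = 3 libraries behind each mean. Cyp2e1 stood first in both groups, at 3263 in iD1 livers and 1743 in vehicle livers, and Cyp3a11 second, at 1349 in iD1 livers and 1272 in vehicle livers. The 3 libraries of Cyp2e1, from 2545 to 3889, lay above those of Cyp3a11, from 882 to 1636, in iD1 livers. In vehicle livers they overlapped, from 1442 to 1947 for Cyp2e1 and from 1029 to 1588 for Cyp3a11. Below them the order changed between the groups. Cyp2a5, at 594, and Cyp2d9, at 517, came next in iD1 livers, and Cyp2f2, at 479, and Cyp2c29, at 386, came next in vehicle livers. Within each of these pairs the libraries overlapped, with Cyp2a5 from 368 to 911 and Cyp2d9 from 413 to 599 in iD1 livers, and Cyp2f2 from 434 to 560 and Cyp2c29 from 242 to 466 in vehicle livers. Por stood at rank 11 in iD1 livers with 209 CPM per kilobase and at rank 20 in vehicle livers with 63.8. Cyp3a13 stood at rank 16 in iD1 livers with 154 CPM per kilobase and at rank 21 in vehicle livers with 56.5.

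**Figure D4:**
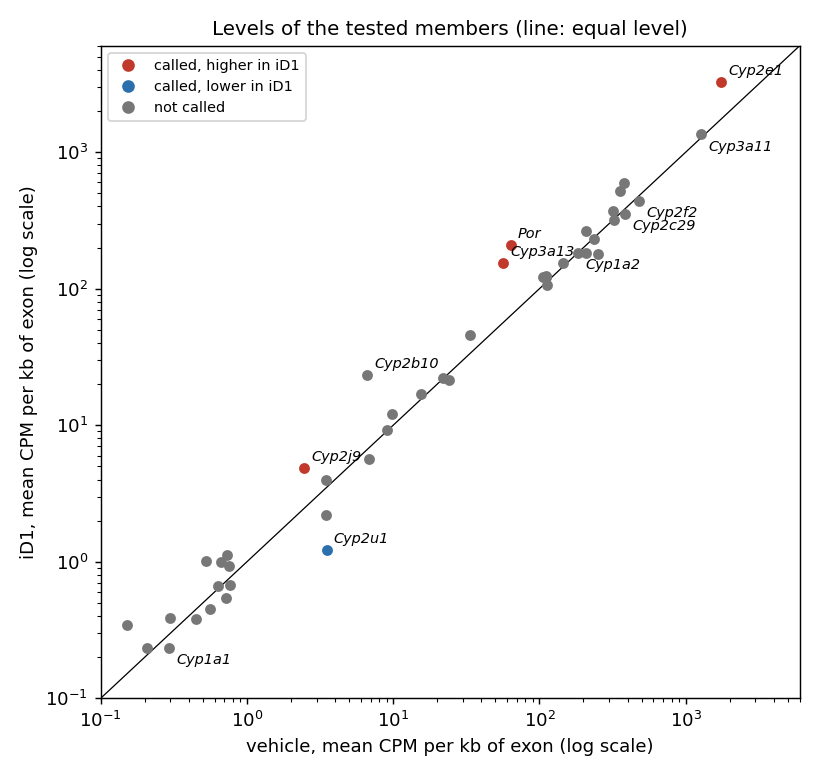
Mean level of each tested member in CPM per kilobase of exon, iD1 on the y axis against vehicle on the x axis, both log axes, with a line of equal level and colours for the edgeR call. Por lies at 209 against 63.8, Cyp3a13 at 154 against 56.5 and Cyp2e1 at 3263 against 1743 above the line, while Cyp3a11 lies at 1349 against 1272 close to it.

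Within each group the tested members tended to be lowest in the same library. Replicate 1 was the lowest iD1 library for 33 of the 46 members (71.7%), against 35.0% of all tested genes. It was the lowest vehicle library for 33 members as well (71.7%), against 34.9% of all tested genes. Both held for 28 members (60.9%), against 14.3% of all tested genes. Members are not independent of each other, and this was not tested. The deviations of same-numbered libraries from their group means, over all tested genes, had correlations of 0.203 for number 1 and -0.15 for number 2. Beside the 28 members lowest in both, these correlations do not settle whether the numbers pair the libraries. The main fit left the libraries unpaired.

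Heme is the prosthetic group of every P450, and 2 of 4 genes of heme breakdown rose. Of all tested genes, 8.42% were called higher and 8.3% lower. Hmox1, the inducible heme oxygenase, had 67.5, 311 and 275 CPM in iD1 livers, against 9.68, 15.4 and 14.4 CPM in vehicle livers, a log2 fold change of 4.05 (SE 0.67, edgeR adjusted p = 0.0179). Hmox2, the constitutive form, had 41.6, 58.4 and 55.1 CPM in iD1 livers, against 24.5, 34.2 and 36.8 CPM in vehicle livers, a log2 fold change of 0.70 (SE 0.18, edgeR adjusted p = 0.0292). None of the 4 fell, and the median of their log2 fold changes was 0.41, against 0.000637 over all tested genes. The count of 2 went to 0 when iD1 replicate 2 or 3 or vehicle replicate 1 or 2 was left out, and to 1, Hmox2, without the unnumbered vehicle replicate. Of 8 genes of heme synthesis, 0 were called higher by edgeR, DESeq2 or limma-voom. At an unadjusted p under 0.05 in edgeR, 0 were higher and 2 were lower, Ppox and Uros. These 2 lay lower without overlap, and 1 gene, Fech, lay higher without overlap. Ppox, the protoporphyrinogen oxidase, was called lower, with 10.2, 8.54 and 8.78 CPM in iD1 livers, against 16.2, 13.2 and 11.6 CPM in vehicle livers, a log2 fold change of -0.57 (SE 0.15, edgeR adjusted p = 0.033). That count of 1 went to 0 when iD1 replicate 2 or 3 or vehicle replicate 1 or 2 was left out. Alas1, the rate-limiting enzyme of heme synthesis, had 468, 491 and 558 CPM in iD1 livers, against 277, 676 and 441 CPM in vehicle livers, and was not called (log2 fold change 0.12, SE 0.28).

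Of 12 receptors and partners that control these P450 genes, 5 were called higher and 1 lower. The shares of all tested genes were 8.42% called higher and 8.3% called lower. The median log2 fold change of the 12 was 0.29, against 0.000637 over all tested genes, and the list was not tested as a set. Nr1i2, which encodes PXR, had 83.8, 91.3 and 104 CPM in iD1 livers, against 42.2, 58.5 and 62.8 CPM in vehicle livers. The log2 fold change of Nr1i2 was 0.77 (SE 0.16, edgeR adjusted p = 0.0122). Ahr had 47.6, 72.4 and 60.3 CPM in iD1 livers, against 19.0, 36.1 and 28.4 CPM in vehicle livers (log2 fold change 1.11, SE 0.24, edgeR adjusted p = 0.0201). Ppargc1a, a coactivator of nuclear receptors, had 9.79, 22.2 and 23.5 CPM in iD1 livers, against 6.05, 7.52 and 7.26 CPM in vehicle livers (log2 fold change 1.41, SE 0.32, edgeR adjusted p = 0.0262). The libraries of the groups did not overlap for these 3 genes. Nr3c1, the glucocorticoid receptor, fell to 56.1, 45.4 and 52.1 CPM in iD1 livers, against 64.0, 82.3 and 72.8 CPM in vehicle livers (log2 fold change -0.51, SE 0.13, edgeR adjusted p = 0.0286). The other called receptors were Ppara (log2 fold change 0.63) and Hnf4a (0.78). Nr1i3, which encodes CAR, was not called (log2 fold change 0.28, SE 0.17). The count called higher was 4 without iD1 replicate 1, 2 without iD1 replicate 2, vehicle replicate 1 or vehicle replicate 2, 1 without the unnumbered vehicle replicate and 0 without iD1 replicate 3. Nr1i2 was among them each time but without iD1 replicate 3. Leaving out iD1 replicate 1 or vehicle replicate 1 kept the call of Nr3c1, and leaving out any of the other libraries ended it.

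Of 14 targets of CAR and PXR outside the P450 genes, transporters and conjugating enzymes among them, 0 were called higher by edgeR and limma-voom and 1, Abcc2, by DESeq2. An unadjusted p under 0.05 in edgeR was found for 1 higher gene. After adjustment, edgeR called 8.42% of all tested genes higher and 8.3% lower. Aldh1a7, an aldehyde dehydrogenase, was called lower, with 149, 151 and 139 CPM in iD1 livers, against 201, 181 and 203 CPM in vehicle livers. Its log2 fold change was -0.41 (SE 0.12, edgeR adjusted p = 0.0411), and that call was lost when any 1 of the 6 libraries was left out. The median log2 fold change of the 14 was 0.30, against 0.000637 over all tested genes. With library size alone it was 0.10, against -0.20. Of 5 listed AHR targets outside the P450 genes 3 were tested and 2 rose. Tiparp had 13.2, 32.1 and 26.7 CPM in iD1 livers, against 4.76, 6.17 and 7.57 CPM in vehicle livers (log2 fold change 1.96, SE 0.35, edgeR adjusted p = 0.0133). Nqo1, a quinone reductase that also responds to oxidative stress, had 5.97, 7.44 and 7.01 CPM in iD1 livers, against 3.56, 5.23 and 4.44 CPM in vehicle livers (log2 fold change 0.62, SE 0.18, edgeR adjusted p = 0.0447). Both were called without iD1 replicate 1, neither without iD1 replicate 3, and 1 of them without each of the other 4 libraries.

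**Figure D5:**
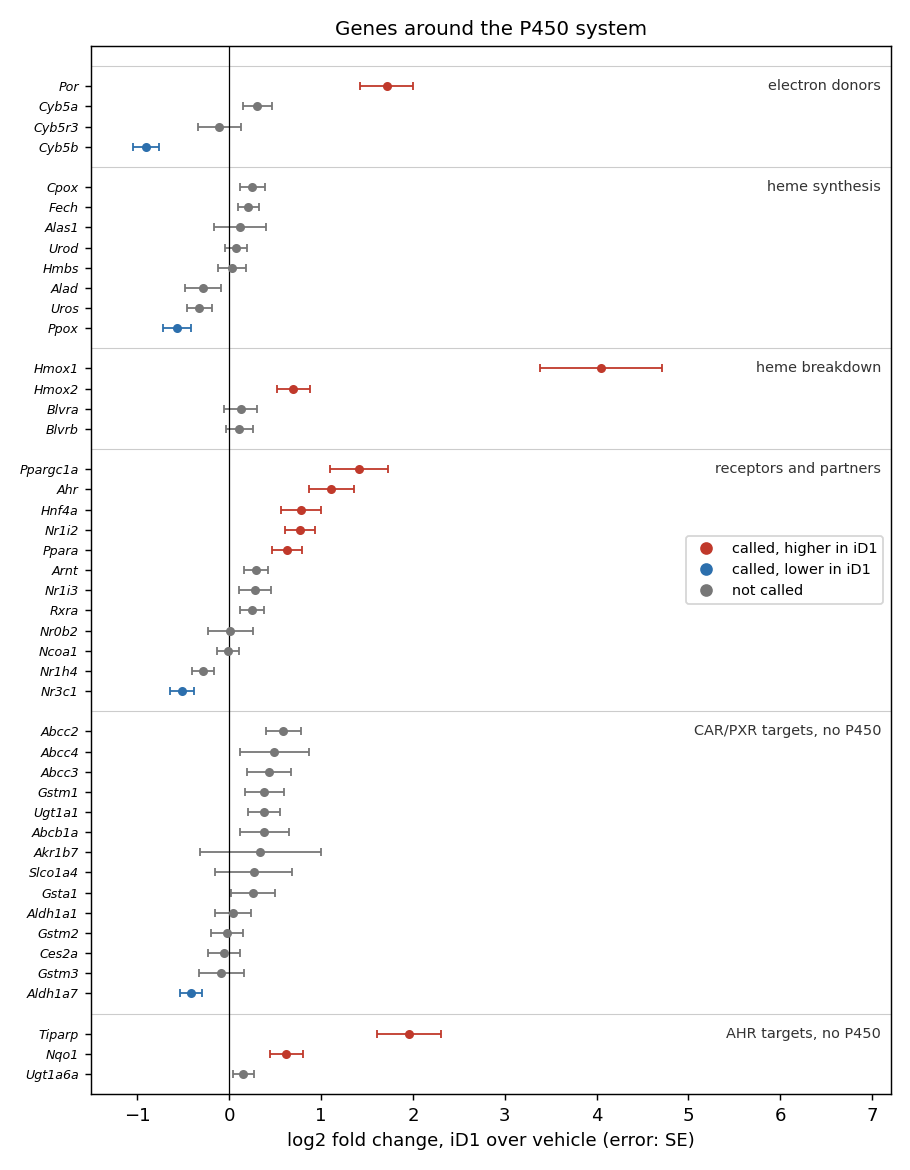
Log2 fold change, iD1 over vehicle, of the tested genes of 6 lists around the P450 system, with the SE as error bars and colours for the edgeR call. Hmox1 (4.05) lies farthest to the right, Por (1.71) stands above the other electron donors, and the CAR and PXR targets cluster between -0.41 and 0.59.

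Within the members, lists by biology gave 0 or 1 calls each in edgeR. Over all tested genes, 8.42% were called higher and 8.3% lower. Of 8 genes expressed mostly around the central vein, 1 was called higher, Cyp2e1, and 0 lower, with a median log2 fold change of 0.09. That count went to 0 without iD1 replicate 3 or any of the vehicle libraries. Of 7 listed arachidonate P450 genes 6 were matched by symbol, and 1, Cyp2j9, was called. The remaining name, Cyp2c44, is given by RefSeq as a synonym of Cyp2c23, a member that was tested and not called. Of 9 female-biased P450 genes 7 were tested and 0 were called by edgeR, DESeq2 or limma-voom, with 1, Cyp3a41a, at an unadjusted p under 0.05. Their summed level ran from 6.77 to 24.4 CPM in iD1 livers and from 7.22 to 15.4 CPM in vehicle livers. Among P450 genes of the Cyp4 and higher families, 27 of 38 were tested. Of the 27, 5 were called higher (18.5%, against 8.42% of all tested genes) and 3 lower (11.1%, against 8.3%).

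Markers of liver cell types were set beside these values, and their part in the results was not tested. For comparison, 8.42% of all tested genes were called higher and 8.3% lower. Of 8 hepatocyte markers 2 were called higher, Tat and Apoa1, and the summed level ran from 94475 to 104383 CPM in iD1 livers and from 73127 to 96949 CPM in vehicle livers. Of 9 Kupffer cell markers 0 were called by edgeR, with 1 higher and 2 lower at an unadjusted p under 0.05, and DESeq2 and limma-voom each called 1 higher. Their sum ran from 131 to 188 CPM in iD1 livers and from 135 to 224 CPM in vehicle livers. Of 8 neutrophil markers 5 were tested and 3 were called higher, Retnlg, S100a8 and S100a9. The neutrophil sum was low in both groups, from 3.99 to 12.2 CPM in iD1 livers and from 1.47 to 2.20 CPM in vehicle livers, and Ly6g and Mpo were at 0 in all iD1 libraries. Of 7 endothelial markers 1 was called lower by edgeR, Fcgr2b, while DESeq2 called 3 lower and limma-voom 2. At an unadjusted p under 0.05 in edgeR, 4 were lower and 1 was higher. Without overlap, 4 lay lower (57.1%, against 18.7% of all tested genes) and 1 lay higher. The endothelial sum ran from 154 to 192 CPM in iD1 livers and from 178 to 226 CPM in vehicle livers. Of 7 stellate cell markers 1 was called lower, Lrat, with a sum from 185 to 249 CPM in iD1 livers and from 194 to 254 CPM in vehicle livers. Of 6 cholangiocyte markers 5 were tested, Sox9 was called higher and Krt19 lower, and the sum ran from 28.0 to 45.6 CPM in iD1 livers and from 22.9 to 36.7 CPM in vehicle livers. Tat, Retnlg, Lrat and Krt19 kept their call without each of the 6 libraries. Apoa1 lost it when any 1 of the 6 was left out, Sox9 without 5 of them, S100a9 and Fcgr2b without 4 and S100a8 without 2. None of the 6 B and T cell markers had enough counts to be tested, and their sum was at most 1.65 CPM in iD1 livers and 3.03 CPM in vehicle livers.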

How the data were processed

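Livers of 3 iD1 and 3 vehicle samples were compared. The authors deposited, in a single table, estimated counts for each gene, a unit read from the values, and these were rounded here to whole numbers. Which aligner, quantifier and genome build made them was not given in the sources used here. The kit was stranded, per the labels. Symbols were found for 34582 of 34866 identifiers, and coordinates, exon lengths and shared 31-base words came from GENCODE M21. Columns were assigned to samples by name. No pair of libraries of a group agreed within sampling noise.

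Genes were kept by filterByExpr (minimum count 10, minimum total 15), scaled by TMM (factors 0.878 to 1.005 in iD1 and 1.01 to 1.108 in vehicle) and tested by edgeR 4.0.16 (R 4.3.3) with its robust quasi-likelihood F test, two-sided, adjusted by Benjamini-Hochberg over 13718 genes at a threshold of 0.05. The SE is the size of the log2 fold change divided by the square root of F. SDs are over 3 libraries. An exact permutation test of 3 libraries against 3 cannot go under 0.1. Sums, shares, promoter matches and levels were not tested.

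Library values are given for called members, for members whose mean reached 100 CPM in either group and for Por, and in each other list for up to 4 called genes by smallest p. Ppara, Hnf4a, Nr1i3, Alas1, Cyb5a and Cyb5r3 were named, and library values of Cyp1a1, Cyp2b10, Cyp2c55, Cyp2r1 and Cyp3a41a were added, after their values were seen. The members and lists were chosen with earlier results of these data known. Alternatives comprised 3 other scalings, other filters, limma-voom (limma 3.58.1), DESeq2 1.42.0, a threshold of 0.01, testing against a 1.2-fold change, shrinkage without robustness, blocking on replicate number and leaving out each library.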

Additional observations from a re-analysis of the deposited data

How the results depend on the processing

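The count of 5 called members (4 higher, 1 lower) was 9 of 49 tested (8 higher) with DESeq2, which called 17.5% of all genes it tested. DESeq2 added Cyp2d9, Cyp2d22, Cyp2d26 and Cyp2j8. The count was 3 with 0 lower at a threshold of 0.01, where 6.01% of all tested genes were called and 2.68% were called lower. With library size only, 2 were called lower, and the median of all genes moved to -0.20, while the count called higher was 3 for receptors, 1 for heme breakdown and 1 for AHR targets. Leaving out a library gave 3 to 7 called members, 3 to 6 higher and 0 to 2 lower, with 3 called and 0 lower without iD1 replicate 3. Over these fits 8.64% to 18.1% of all tested genes were called. Without iD1 replicate 1 there were 7 called and 2 lower, with Cyp2c70 added, and without iD1 replicate 2 there were 7 called. The replicate block was fitted on the 4 libraries numbered 1 or 2, without iD1 replicate 3 and the unnumbered vehicle replicate. It called 4 members, Por, Cyp3a13, Cyp2j9 and Cyp2u1, and 5.49% of all genes it tested, and Cyp2e1 had an edgeR adjusted p of 0.0654. The same 4 libraries with no block, an alternative chosen after the data were seen, called 1 member higher, Cyp2j9, and 0 lower, with 3.73% of all genes called. In it Por, Cyp3a13, Cyp2e1 and Cyp2u1 had adjusted p values of 0.0836, 0.0627, 0.171 and 0.139 in edgeR's test. The labels do not say that the numbers mark shared animals, and the correlations of same-numbered deviations were 0.203 and -0.15. Among 18 alternative settings, Cyp2j9 was called in 18, Por and Cyp3a13 in 17, Cyp2u1 in 15 and Cyp2e1 in 11. Of 90 fold changes of called members across settings, 78 kept their call, 12 lost it and 0 reversed. The 24 other named members, not called in the main fit, gave 431 values. Of these, 403 stayed uncalled within 1 SE of the main log2 fold change. A further 20 stayed uncalled but moved by 1 SE or more, and 8 were called, 0 of them with a changed sign. Changes of sign without a call were not counted as reversals. Of the 46 tested members, 29 had a log2 fold change above 0 in the main fit and 17 with library size only. The causes were not tested. Groups of 3 limit precision, and counts of Cyp2j8, Cyp3a41a and Cyp3a41b are low.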
